A study of Mus musculus with 12 samples.

Results

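The axon guidance genes described here are the secreted and membrane-bound cues that steer growing axons and migrating neurons, and the receptors that read them. They were taken by gene symbol: semaphorins of classes 3 to 7, plexins, neuropilins, Eph receptors, ephrins, Slits, Robos, netrins with the netrin-G proteins, Dcc and the Unc5 receptors. Of 34102 genes in the count table, 71 matched, 37 of them ligands and 34 receptors or co-receptors. They comprise 20 semaphorins, 14 Eph receptors, 9 plexins, 8 ephrins, 6 netrins, 5 netrin receptors, 4 Robos, 3 Slits and 2 neuropilins.

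The values come from RNA sequencing of C57BL/6 mouse material in 4 groups of 3 libraries each. The cortex libraries labelled cKO carry Srsf10 flox/flox with Nestin-Cre+, and their controls carry Srsf10 flox/flox with Nestin-Cre-. The protein made from Srsf10 is an SR-family regulator of splicing, and the Nestin promoter drives Cre in neural progenitors, so cells of other origin in the tissue keep the gene. The floxed alleles are in both cortex groups, the Cre in 1 of them, so Cre and deletion cannot be told apart. The cultured libraries come from primary neural progenitor cells (NPC), given a lentivirus for SRSF10 knockdown at a multiplicity of infection of 30 and harvested 72 h after infection, against NPC labelled WT. Both NPC groups were grown in medium with bFGF, EGF, heparin and B27 supplement, and the labels do not say which virus the controls received. The labels give no age and do not say that libraries come from separate animals or cultures, so p-values measure the spread between libraries.

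Semaphorins signal through plexins, and the secreted class 3 semaphorins mostly need a neuropilin as the binding partner of a plexin A. Eph receptors are tyrosine kinases that bind ephrins on the surface of neighbouring cells, with GPI-anchored ephrin-A and transmembrane ephrin-B ligands that can signal back. Slits repel axons through Robo receptors, and netrin-1 attracts through Dcc and repels through Unc5 receptors. In the developing cortex these families are known for callosal and thalamic axon paths, for the migration of pyramidal cells and interneurons, and for contacts between progenitors.

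Total counts ran between 32560159 and 36713205 in the cortex libraries and between 26074094 and 30608918 in the NPC libraries. Srsf10 itself lay between 187 and 224 CPM (counts scaled to the total of the library) in cortex labelled cKO, against 198 to 220 CPM in control cortex, and between 217 and 239 CPM in NPC labelled knockdown, against 223 to 249 CPM in control NPC. Its gene-level transcript was not called as changed in either system, with log2 changes of 0.03 in cortex (adjusted p = 0.917) and -0.05 in NPC (adjusted p = 0.774), although each knockdown library was slightly below the control library of its number. The groups are therefore called by their labels; a gene total does not show which exons carried reads. The NPC libraries held 1902 to 2474 CPM of the progenitor marker Nes and 5.47 to 13.6 CPM of the neuronal marker Dcx, against 129 to 139 CPM of Nes and 2295 to 3047 CPM of Dcx in the cortex libraries. The oligodendrocyte lineage marker Olig2 was also high in NPC, at 1051 to 1152 CPM. In cortex, 2 libraries (cKO 3 and control 2) exceeded 1000 CPM of the choroid plexus transcript Ttr. By Ddx3y, 1 cKO library and 2 control cortex libraries were male, and in NPC only number 3 of each group. NPC libraries of the same number deviated together from their group means, with correlations across genes of 0.48, 0.50 and 0.44, against 0.02, -0.16 and -0.02 in cortex. Each NPC result is therefore given in 2 ways, without pairs and with the replicate number as a block.

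In NPC labelled knockdown, 5 receptors or co-receptors and 1 ligand passed the test. The plexin receptors Plxnc1 and Plxna4 and the ephrin receptor Epha5 were higher, and the netrin receptor Unc5d, the semaphorin co-receptor Nrp1 and the semaphorin Sema4b were lower. These 6 of 65 genes tested passed an adjusted p of 0.05 without pairs (edgeR quasi-likelihood test with Benjamini-Hochberg adjustment over all genes, as for each adjusted p below), 3 in each direction. That is 9.23% of the guidance genes tested, where 1.89% of all 14258 genes tested were called, 0.351% as higher and 1.54% as lower. With pairs, 20 of 65 were called, or 30.8%, with 8 higher and 12 lower. The share of all genes called with pairs was 24.7%, with 11.9% higher and 12.8% lower, so the guidance genes were called about as often as the table as a whole in that fit. The guidance set was chosen with earlier results of these data known, so its shares are a description. All 6 genes called without pairs were called with them in the same direction. The median log2 change was -0.01 without pairs and -0.01 with pairs, beside 0.005 and 0.0033 for all genes. Among the 31 receptors tested, 5 passed without pairs and 12 with pairs, and among the 34 ligands tested, 1 passed without pairs and 8 with pairs.

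The count without pairs rested on few libraries. It fell to 3 without control library 1, to 1 (Sema4b) without control library 2 or without knockdown library 2, and to none without control library 3, where Sema4b had the lowest adjusted p of 0.0515. With pairs the count was 24 without pair 1, 16 without pair 2 and 10 without pair 3. DESeq2 called 7 guidance genes without pairs and 12 with the block. Of all genes it called 1012 without pairs, against 270 in edgeR, and 2437 with the block, against 3522. The share of all genes beside the 7 was thus far higher than the 1.89% of the edgeR fit.

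**Figure D1:**
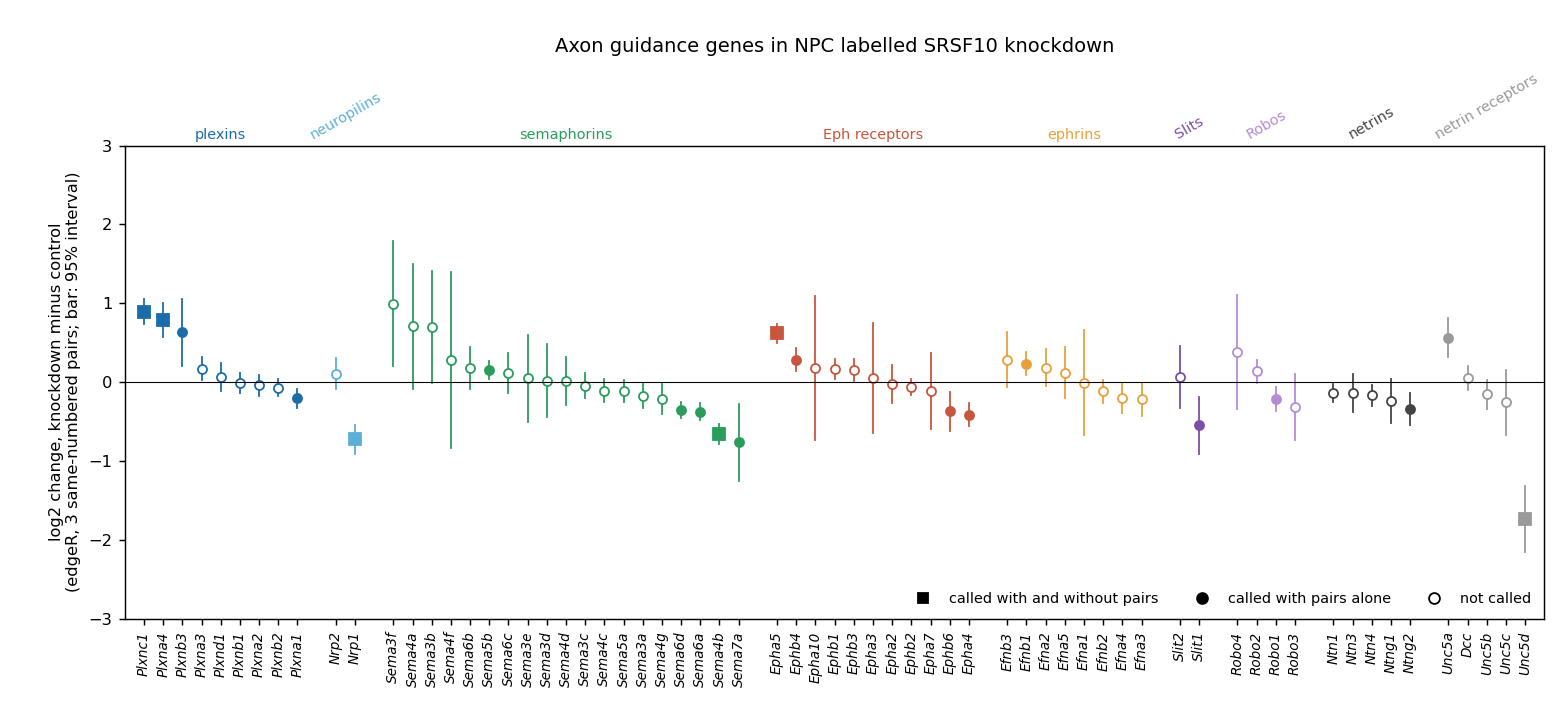
Log2 change of the 65 guidance genes tested in NPC, labelled knockdown minus control, from the edgeR fit with 3 same-numbered pairs, grouped by family. Points are estimates and bars 95% intervals. Squares mark the 6 genes called with and without pairs, filled circles the 14 called with pairs alone, open circles the rest; Unc5d is lowest at -1.73.

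Among the 3 genes called higher without pairs, the plexins Plxnc1 and Plxna4 had the largest changes. Plxnc1, the receptor of Sema7a, had 37.4, 38.8 and 29.1 CPM in knockdown libraries 1 to 3, against 20.7, 19.4 and 16.5 CPM in control libraries 1 to 3. Every knockdown library lay above every control library, and the difference was 0.90 on the log2 scale without pairs (SE 0.14, adjusted p = 0.0252) and 0.89 with pairs (SE 0.07, adjusted p = 2.68e-06). Plxna4, a class A plexin that mediates responses to Sema3a and Sema6 proteins, had 14.5, 17.8 and 18.6 CPM in knockdown NPC and 9.80, 9.28 and 10.3 CPM in control NPC. These groups did not overlap either, and Plxna4 rose by 0.79 without pairs (SE 0.12, adjusted p = 0.0267) and by 0.79 with pairs (SE 0.10, adjusted p = 9.75e-05). In mm10, Plxnc1 lies on chromosome 10 (94790866 to 94944835, minus strand) and Plxna4 on chromosome 6 (32144268 to 32588192, minus strand).

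Of the other 7 plexins, 2 passed with pairs alone. That makes 4 of 9 plexins with pairs (44.4%), beside 24.7% of all genes. Plxna1, a co-receptor of class 3 semaphorins, had 202, 243 and 252 CPM in knockdown NPC and 248, 254 and 300.2 CPM in control NPC. The groups overlapped, but each knockdown library was below its own control, and the change was -0.21 (adjusted p = 0.365 without pairs and 0.0147 with pairs, a call lost without pair 3). About 10.7% of its exon bases also lie in an antisense gene, and the labels do not say whether counting used strand. Plxnb3, a receptor for Sema5a, had 33.1, 11.5 and 10.3 CPM in knockdown NPC and 12.1, 10.6 and 9.07 CPM in control NPC. Knockdown library 1 alone carried most of this difference, with pair values of 1.44, 0.12 and 0.18 on the log2 scale. The blocked change of 0.63 (adjusted p = 0.0336) was 0.15 in the lowest of its alternatives and was not called with DESeq2 or without pair 1 or pair 3. Plxnb2, the most abundant plexin in NPC and a receptor for class 4 semaphorins, had 398, 453 and 441 CPM in knockdown NPC and 437, 453 and 466 CPM in control NPC, with a change of -0.07 (adjusted p = 0.640 without pairs). Plxna2, Plxna3, Plxnb1 and Plxnd1 did not pass in either fit.

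**Figure D2:**
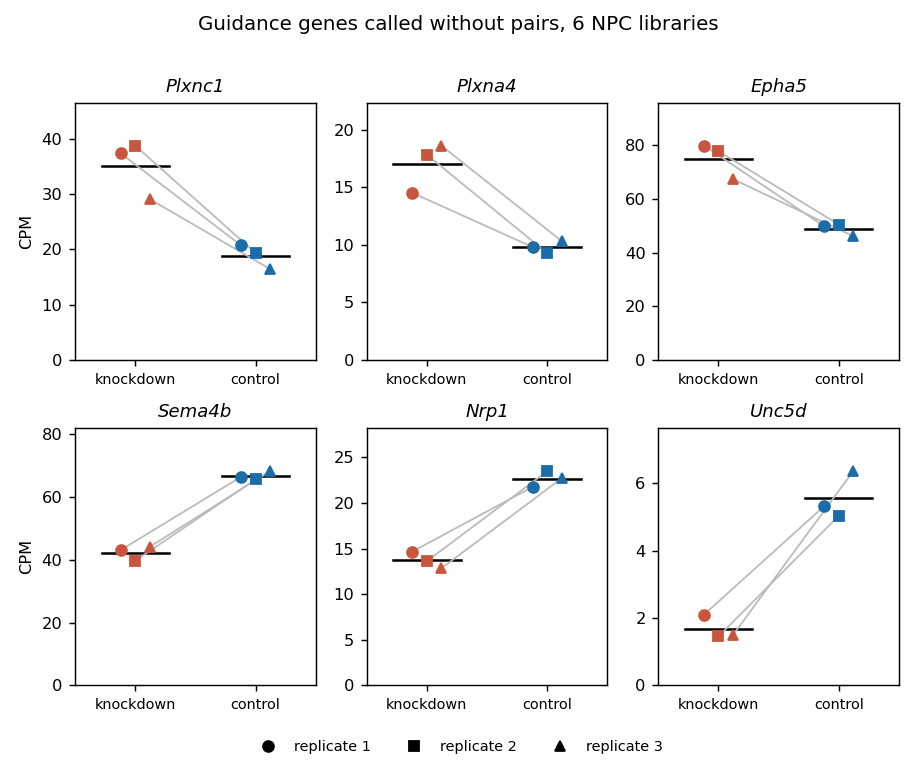
CPM of the 6 guidance genes called without pairs in the 3 NPC libraries labelled knockdown (left, red) and the 3 controls (right, blue). Horizontal bars are group means and grey lines join libraries of the same number. In each panel the groups do not overlap, and Unc5d averages 1.69 CPM in knockdown NPC and 5.58 CPM in control NPC.

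The neuropilins parted. Nrp1, the co-receptor of Sema3a and also of vascular endothelial growth factor, had 14.7, 13.6 and 12.8 CPM in knockdown NPC and 21.8, 23.5 and 22.7 CPM in control NPC. The groups were well apart, and Nrp1 fell by 0.72 on the log2 scale without pairs (SE 0.09, adjusted p = 0.0115) and by 0.73 with pairs (SE 0.09, adjusted p = 5.82e-05). Its gene lies on chromosome 8 (128358604 to 128503363, plus strand). Nrp2, which binds Sema3f, had 17.2, 25.8 and 9.08 CPM in knockdown NPC and 15.2, 23.0 and 9.35 CPM in control NPC. Here the level followed the replicate number, and the change with pairs was 0.11 (95% interval -0.08 to 0.30, adjusted p = 0.412). The marker list of endothelial and mural cells, which express Nrp1, summed to 11.4 to 13.0 CPM in knockdown NPC and 17.7 to 22.1 CPM in control NPC. Of its 5 genes tested, 1 was called, Flt1, a receptor of vascular endothelial growth factor (6.60 CPM in knockdown NPC and 14.6 CPM in control NPC, log2 change -1.15, adjusted p = 0.0387 without pairs). The fall of the sum was mostly that of Flt1, and the median log2 change of the 5 genes was 0.02 without pairs. Pecam1 averaged 0.488 CPM in knockdown NPC and 0.307 CPM in control NPC, in the other direction. In the 6 NPC libraries Cdh5 was at or below 0.0973 CPM, Pecam1 between 0.179 and 0.681 CPM and the mural marker Pdgfrb between 0.0677 and 0.802 CPM, while Pecam1 had at least 17.1 CPM in each cortex library. Cldn5 was at 0 in all 3 knockdown libraries and at most 0.143 CPM in the controls, but was also under 0.7 CPM in cortex. The part of these cells in the Nrp1 value was not tested.

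Among the semaphorins, Sema4b alone passed without pairs. This transmembrane class 4 semaphorin had 43.2, 39.7 and 44.2 CPM in knockdown NPC and 66.5, 65.7 and 68.3 CPM in control NPC. The gap between the groups was far wider than the spread within either, and Sema4b fell by 0.66 without pairs (SE 0.07, adjusted p = 0.00607) and by 0.66 with pairs (SE 0.06, adjusted p = 4.21e-06). It lies on chromosome 7 (80186841 to 80226527, plus strand). Of 19 semaphorins tested in NPC (Sema3g was below the count filter), 1 passed without pairs and 5 with pairs, 4 of these lower and 1 higher. Those are 5.26% and 26.3%, beside 1.89% and 24.7% of all genes, so with pairs the share was near that of the whole table.

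The transmembrane class 6 semaphorins Sema6a and Sema6d, which bind class A plexins, are among the more abundant guidance genes of these cultures. Sema6d had 375, 360 and 390 CPM in knockdown NPC and 467, 457 and 511 CPM in control NPC, with no overlap. It missed the threshold without pairs (log2 change -0.35, SE 0.07, adjusted p = 0.0521) and passed with them (-0.35, SE 0.05, adjusted p = 1.51e-04). Sema6a had 112, 159 and 145 CPM in knockdown NPC and 144, 205 and 189.9 CPM in control NPC. Number 1 was lowest in both groups, so the groups overlapped, while the 3 pair differences were close to each other at -0.35, -0.37 and -0.39. The change of -0.37 had an adjusted p of 0.288 without pairs and 1.05e-04 with pairs.

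Sema7a, a GPI-anchored semaphorin that binds Plxnc1, was scarce in NPC. It had 2.91, 1.10 and 1.09 CPM in knockdown NPC and 3.94, 2.25 and 2.10 CPM in control NPC. It was lower within each pair, and its change was -0.70 without pairs (adjusted p = 0.463) and -0.76 with pairs (SE 0.23, adjusted p = 0.0265), a call lost with DESeq2 and without pair 2 or pair 3. Sema5b had 153, 132 and 148 CPM in knockdown NPC and 127, 128 and 133 CPM in control NPC; its blocked change of 0.16 had an adjusted p of 0.0498, at the threshold, and was not called when any 1 pair was left out or with DESeq2. The Plxnd1 ligand Sema3e and the Nrp2 ligand Sema3f, both between 0.250 and 2.15 CPM in every NPC library, did not pass, although Sema3f, at 0.996, 1.69 and 0.583 CPM in knockdown NPC and 0.250, 0.916 and 0.474 CPM in control NPC, had an estimate of 1.01 without pairs. Sema3a had 75.0, 91.3 and 89.1 CPM in knockdown NPC and 101, 94.3 and 93.2 CPM in control NPC, with a change of -0.18 (adjusted p = 0.344 without pairs and 0.0847 with pairs).

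Among the Eph receptors, Epha5 stood out. Epha5, a receptor of ephrin-A ligands, had 79.9, 77.8 and 67.4 CPM in knockdown NPC and 49.7, 50.5 and 46.1 CPM in control NPC. The lowest knockdown library lay well above the highest control, and the difference was 0.62 without pairs (SE 0.08, adjusted p = 0.0164) and 0.62 with pairs (SE 0.06, adjusted p = 6.37e-06), a fold of 1.54. The gene lies on chromosome 5 (84054761 to 84417382, minus strand). With pairs, 3 more of the 11 Eph receptors tested passed, Ephb4 as higher and Epha4 and Ephb6 as lower. That makes 4 of 11 with pairs (36.4%), beside 24.7% of all genes. Epha4, which binds both ephrin classes, had 22.8, 19.3 and 26.6 CPM in knockdown NPC and 30.7, 25.5 and 35.2 CPM in control NPC, and its pair differences were -0.43, -0.40 and -0.40. The change of -0.41 had an adjusted p of 0.226 without pairs and 6.98e-04 with pairs.

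Ephb4, the receptor of ephrin-B2, had 31.6, 30.2 and 27.9 CPM in knockdown NPC and 26.01, 25.4 and 22.2 CPM in control NPC. The groups did not overlap, and the change was 0.28 without pairs (adjusted p = 0.175) and 0.29 with pairs (adjusted p = 0.00780), a call lost without pair 3. Ephb6, whose kinase domain is inactive, had 8.20, 9.82 and 8.82 CPM in knockdown NPC and 11.2, 10.6 and 13.0 CPM in control NPC, with a change of -0.37 (adjusted p = 0.199 without pairs and 0.0302 with pairs), and the call was lost with DESeq2 and without pair 3. Ephb2, the highest Eph receptor in NPC, had 198, 117 and 191 CPM in knockdown NPC and 210, 121 and 199 CPM in control NPC. Its level followed the replicate number in both groups, and the change with pairs was -0.06 (95% interval -0.17 to 0.04). Epha6 and Epha8 were too low in NPC to be tested, as was Epha1 in every comparison.

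Of the 8 ephrins tested, none passed without pairs in the edgeR test, where none had an unadjusted p under 0.05 either. DESeq2 called no ephrin either. In the edgeR fit with pairs the share called was 12.5% of the ephrins, beside 24.7% of all genes. With pairs 1 passed: Efnb1, an X-linked transmembrane ephrin, had 50.8, 51.3 and 61.5 CPM in knockdown NPC and 49.7, 39.1 and 50.3 CPM in control NPC. Its pair differences were 0.03, 0.39 and 0.29, and the blocked change of 0.24 (adjusted p = 0.0256) was lost with DESeq2 and without pair 2 or pair 3. Efnb3, another B-class ephrin, had 6.78, 6.16 and 3.97 CPM in knockdown NPC and 4.83, 4.43 and 4.40 CPM in control NPC, which overlapped (change 0.31, adjusted p = 0.507 without pairs). Efna5, an ephrin-A ligand that binds Epha5, ranged between 3.37 and 14.0 CPM in knockdown NPC and between 3.83 and 10.2 CPM in control NPC, with the highest value at number 2 in both groups.

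Of the Slit and Robo genes, none passed without pairs and 1 of each family passed with them. That is 1 of 4 Robos (25.0%) and 1 of 2 Slits tested, beside 24.7% of all genes. Slit1, a secreted repellent, had 2.99, 3.21 and 3.46 CPM in knockdown NPC and 5.30, 4.31 and 4.57 CPM in control NPC. Its groups did not overlap, and the change of -0.55 had an adjusted p of 0.151 without pairs and 0.0294 with pairs, a call lost with DESeq2 and when any 1 pair was left out. Robo1 had 80.4, 129 and 90.8 CPM in knockdown NPC and 95.6, 128 and 119.9 CPM in control NPC; its pair differences were -0.25, 0.01 and -0.40, and the blocked change of -0.21 (adjusted p = 0.0391) was not called with DESeq2 or without pair 3. Robo2 had 79.6, 120.1 and 117 CPM in knockdown NPC and 82.1, 93.4 and 111 CPM in control NPC, with a blocked change of 0.14 (adjusted p = 0.174). Robo3, which modulates midline crossing, had 2.76, 3.27 and 3.03 CPM in knockdown NPC and 2.43, 4.62 and 4.44 CPM in control NPC, with a change of -0.34 (adjusted p = 0.548 without pairs). Slit2 and Robo4 passed in neither fit, and Slit3 was below the count filter in NPC.

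Unc5d showed the largest change of all 65 guidance genes tested in either fit. This netrin receptor, which also binds FLRT proteins and is known for its part in the migration of upper-layer cortical neurons, had 55, 45 and 41 counts in knockdown libraries 1 to 3 and 149, 132 and 188 counts in control libraries 1 to 3. Those counts are 2.11, 1.46 and 1.49 CPM in knockdown NPC and 5.33, 5.04 and 6.37 CPM in control NPC, so both groups are low and do not overlap. On the log2 scale Unc5d fell by 1.73 without pairs (SE 0.22, adjusted p = 0.0115) and by 1.73 with pairs (SE 0.19, adjusted p = 3.39e-05), a fold of 0.302. The gene lies on chromosome 8 (28646717 to 29219636, minus strand).

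With pairs 2 of 5 netrin receptors passed (40.0%), beside 24.7% of all genes. Of the netrin receptors other than Unc5d, Unc5a rose with pairs. It had 8.20, 11.6 and 9.19 CPM in knockdown NPC and 5.55, 7.33 and 6.64 CPM in control NPC, without overlap, and the change was 0.57 without pairs (SE 0.18, adjusted p = 0.158) and 0.57 with pairs (SE 0.11, adjusted p = 0.00262). The attractive receptor Dcc had 38.5, 34.4 and 32.3 CPM in knockdown NPC and 36.1, 30.6 and 34.5 CPM in control NPC, and its blocked change of 0.06 had a 95% interval of -0.09 to 0.20. Unc5b, which is also a receptor of endothelial cells, had 19.8, 15.8 and 23.5 CPM in knockdown NPC and 24.9, 17.2 and 23.7 CPM in control NPC, and neither it nor Unc5c passed.

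All 5 netrins tested had negative changes, but 1 passed, and only with pairs. That is 20.0% of the netrins, beside 24.7% of all genes with pairs. Ntng2, a GPI-anchored netrin-G protein, had 10.5, 12.6 and 18.4 CPM in knockdown NPC and 13.1, 17.9 and 21.3 CPM in control NPC, with a change of -0.33 without pairs (adjusted p = 0.524) and -0.34 with pairs (adjusted p = 0.0156), a call lost with DESeq2 and without pair 2 or pair 3. About 14.0% of its exon bases are shared with another gene on the same strand, so some of its counts are uncertain. Ntn1, the founding secreted netrin, had 211, 233 and 243 CPM in knockdown NPC and 253, 239.6 and 261 CPM in control NPC. It was lower within each pair, and its blocked change of -0.14 had an adjusted p of 0.0860. Ntn5 was below the count filter.

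Some lists of cell type markers moved in the same NPC libraries, and their part in these results was not tested. Not every list is described here. The 6 astrocyte markers summed to 1141 to 1363 CPM in knockdown NPC and 944 to 1023 CPM in control NPC, and 5 of 6 were called with pairs and 0 without, where the smallest adjusted p was 0.0892 for Gja1. Of those 5, Aqp4, Aldh1l1, S100b and Gja1 were higher and Gfap lower. The intermediate progenitor list summed to 165 to 205 CPM in knockdown NPC and 128 to 145 CPM in control NPC. Most of that rise was Btg2 (137 CPM in knockdown NPC and 97.1 CPM in control NPC). It was the only 1 of 4 genes tested that was called, and only with pairs (change 0.48, adjusted p = 9.27e-05). The Cajal-Retzius list summed to 7.09 to 10.7 CPM in knockdown NPC and 15.9 to 20.4 CPM in control NPC, of which Reln was called without pairs (4.18 CPM in knockdown NPC and 14.3 CPM in control NPC). Ndnf of that list was called with pairs, in the other direction (1.84 CPM in knockdown NPC and 1.06 CPM in control NPC, change 0.82, adjusted p = 0.0348). The neuron list overlapped, at 1516 to 2119 CPM in knockdown NPC and 1395 to 1630 CPM in control NPC. Of its genes, Syt1 was lower without pairs (1.46 CPM in knockdown NPC and 3.36 CPM in control NPC, change -1.20, adjusted p = 0.0379) and Gap43 was higher with pairs (change 0.50, adjusted p = 2.41e-04). The radial glia list overlapped, at 13880 to 15750 CPM in knockdown NPC and 13760 to 14720 CPM in control NPC. With pairs, its Sox2 (-0.50, adjusted p = 8.49e-05) and Hopx (-0.85, adjusted p = 1.79e-04) were lower and its Nes (0.21, adjusted p = 0.0198) was higher. The oligodendrocyte lineage list summed to 2941 to 3018 CPM in knockdown NPC and 2829 to 2914 CPM in control NPC. Its 2 genes called with pairs, Pdgfra and Nkx2-2, were lower. In bulk RNA, a change in the share of a cell type and a change per cell cannot be told apart.

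Some of the guidance genes that fell share a short 3′ UTR sequence with many other genes that fell. The hexamers ACCGAC and CCGACT were picked out earlier as frequent in genes that fell in these same libraries, so their presence is a description and no support. Searched on the transcript strand of every annotated 3′ UTR of at least 50 bases, either hexamer stood in 12.1% of 12693 genes tested, in 26.9% of all genes lower with pairs and in 7.48% of all genes higher with pairs. Among the guidance genes it stood in 14 of 65 tested, in 4 of 12 called lower, in 0 of 8 called higher and in 10 of 45 not called, so 22.2% of the genes without a call also held one. The sites of the 4 lower genes are shown because they carry the 2 hexamers in their surroundings, 26 bases each in mm10 and GENCODE M21 transcripts, 5′ to 3′ on the transcript strand, with capitals on the hexamer:
Unc5d: tcagattccaACCGACTggcatccca
Sema4b: gaatccctccCCGACTggactattct
Plxna1: tcagaggggtCCGACTgccaccctct
Sema7a: aaggaaggcgCCGACTgtgaagctgg
The Unc5d window holds both hexamers, overlapping by 5 bases, and begins its first match at base 428 of a 3′ UTR of 6051 bases (chr8:28652325-28652350, minus strand). In Sema4b the match begins at base 381 of 1192 (chr7:80225706-80225731, plus strand), in Plxna1 at base 2694 of 3062 (chr6:89316667-89316692, minus strand) and in Sema7a at base 218 of 1264 (chr9:57961809-57961834, plus strand). Long 3′ UTRs hold any hexamer more often, and these 4 differ widely in length. Nrp1, which fell about as far as Sema4b, held neither hexamer.

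In cortex labelled cKO, no guidance gene passed an adjusted p of 0.05 in the edgeR test, out of 69 tested. The share of all 15781 genes called was 0.171%. At an unadjusted p under 0.05 there were 8 of 69 guidance genes, or 11.6%, beside 10.9% of all genes. DESeq2 called 4, Sema7a and Plxna3 as lower and Plxnd1 and Nrp2 as higher, and edgeR without the count filter called the same 4. Those 2 settings also called more of all genes, 338 with DESeq2 and 156 without the filter, against 27 in the main fit. The median log2 change was -0.02, beside 0.0034 for all genes, with 34 positive and 35 negative.

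Sema7a, which is known to promote axon growth and is rich in cortical neurons, came nearest. It had 148, 149.6 and 149 CPM in cKO cortex and 191, 181 and 199 CPM in control cortex. The cKO libraries were almost level and all below the controls, and the change was -0.36 (SE 0.06, adjusted p = 0.0587). Without control library 2 it was called, at an adjusted p of 0.0451. Plxna3, an X-linked class A plexin that partners with Nrp2, had 129, 129 and 118 CPM in cKO cortex and 159.9, 166 and 148 CPM in control cortex, also without overlap. Its change was -0.33 (SE 0.07, adjusted p = 0.0899).

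Plxnd1, the receptor of Sema3e and prominent in blood vessels and some neurons, had 174, 168 and 136 CPM in cKO cortex and 119, 126 and 122 CPM in control cortex. All cKO libraries were above all controls, with cKO library 3, rich in Ttr, the nearest to them, and the change was 0.39 (SE 0.09, adjusted p = 0.126). Leaving out the 2 libraries rich in Ttr raised it to 0.51 with an adjusted p of 0.0416. Nrp2 had 152, 171 and 141 CPM in cKO cortex and 117, 131 and 96.9 CPM in control cortex, a change of 0.43 (SE 0.11, adjusted p = 0.159). The ligands of these receptors, Sema3e (change -0.19) and Sema3f (-0.11), did not pass. Endothelial and mural markers summed to 297 to 358 CPM in cKO cortex and 241 to 377 CPM in control cortex, meningeal markers to 347 to 538 CPM in cKO cortex and 101 to 482 CPM in control cortex, and interneuron and ventral markers to 388 to 425 CPM in cKO cortex and 479 to 542 CPM in control cortex. In each of these 3 lists no gene was called (edgeR). The astrocyte list summed to 441 to 529 CPM in cKO cortex and 404 to 419 CPM in control cortex, and the oligodendrocyte lineage list to 229 to 231 CPM in cKO cortex and 265 to 287 CPM in control cortex, where Gpr17 fell by 0.79 (adjusted p = 0.0214). Upper-layer neuron markers summed to 1047 to 1230 CPM in cKO cortex and 1257 to 1390 CPM in control cortex, and radial glia markers to 2080 to 2144 CPM in cKO cortex and 2157 to 2384 CPM in control cortex, with no gene of either list called. The part of these cell types in the values of the 4 genes was not tested.

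**Figure D3:**
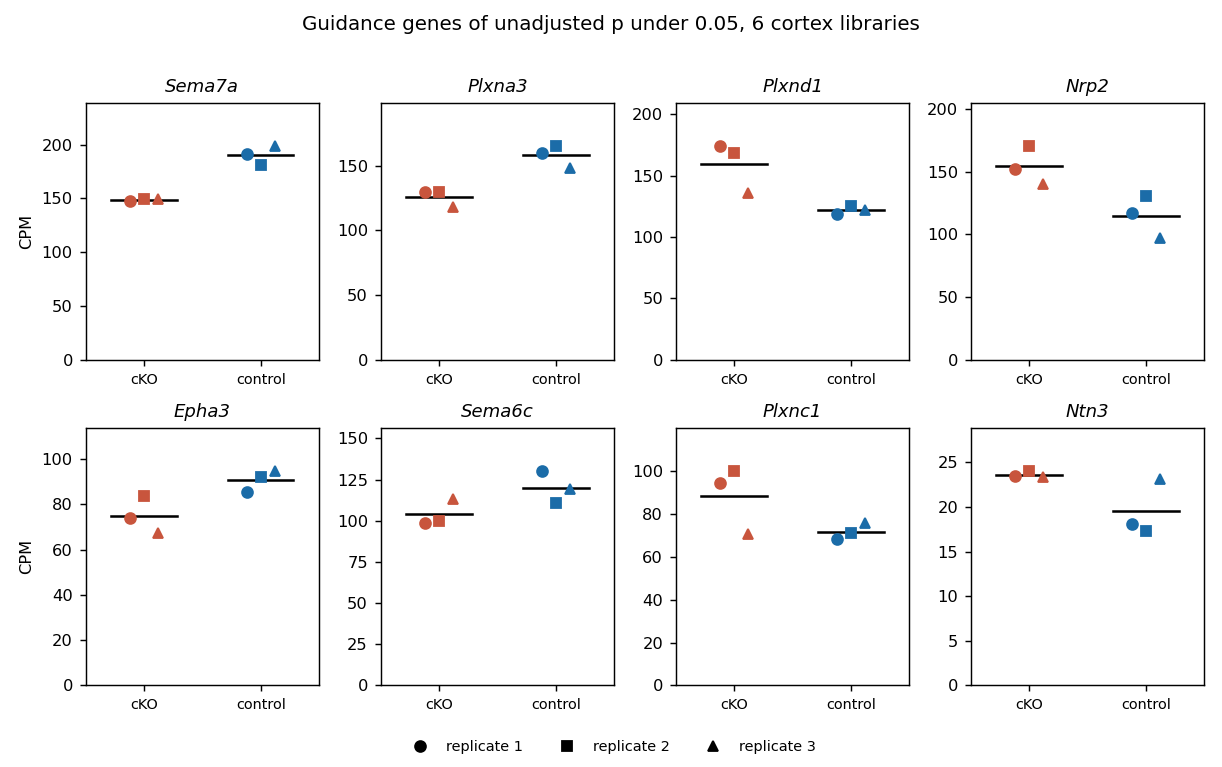
CPM of the 8 guidance genes with an unadjusted p under 0.05 in cortex, in the 3 libraries labelled cKO (left, red) and the 3 controls (right, blue), with bars at the group means. None of the 8 passed after adjustment; Sema7a averages 149 CPM in cKO cortex and 190 CPM in control cortex.

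The remaining 4 genes of unadjusted p under 0.05 were Epha3 (change -0.28, adjusted p = 0.296), Sema6c (-0.21, adjusted p = 0.392), Plxnc1 (0.30, adjusted p = 0.392) and Ntn3 (0.27, adjusted p = 0.454). Plxnc1 had 94.2, 99.8 and 70.6 CPM in cKO cortex and 68.3, 71.2 and 75.5 CPM in control cortex, so cKO library 3 fell inside the controls. Unc5d, the gene of the largest NPC change, had 103, 90.6 and 82.0 CPM in cKO cortex and 75.3, 106 and 92.9 CPM in control cortex, a change of 0.01. Nrp1, Epha5 and Plxna4 changed by -0.05, -0.02 and -0.08, with adjusted p-values of 0.901, 0.950 and 0.820.

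The other families were near 0 in cortex. In the Eph receptors the change of largest size among genes of at least 1 CPM was that of Epha2 (0.67), at only 1.37, 2.82 and 2.02 CPM in cKO cortex and 1.28, 1.14 and 1.47 CPM in control cortex (adjusted p = 0.508). Among the ephrins it was Efna5, with 24.7, 23.3 and 26.7 CPM in cKO cortex and 25.6, 30.9 and 27.8 CPM in control cortex (change -0.17). Slit2 had 45.1, 39.5 and 35.8 CPM in cKO cortex and 31.8, 43.9 and 26.6 CPM in control cortex (0.24), and Robo3 had 2.47, 2.42 and 2.43 CPM in cKO cortex and 2.54, 2.38 and 4.34 CPM in control cortex (-0.34). For each of these 4 genes the cKO and control libraries overlapped. Unc5b had 13.1, 13.6 and 13.0 CPM in cKO cortex and 10.7, 12.2 and 13.0 CPM in control cortex (0.15), and the scarce Sema4f had 2.23, 2.01 and 3.74 CPM in cKO cortex and 2.04, 1.57 and 2.37 CPM in control cortex (0.41).

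The change in NPC minus the change in cortex was tested directly in 1 fit of all 12 libraries. Of 69 guidance genes tested, 4 passed, all receptors, 2 with a positive and 2 with a negative difference. Among all genes 1.46% passed, 0.489% with a positive and 0.972% with a negative difference. Unc5d differed by -1.73 (SE 0.24, adjusted p = 0.00421), Epha5 by 0.65 (SE 0.11, adjusted p = 0.0137), Plxna4 by 0.88 (SE 0.16, adjusted p = 0.0179) and Nrp1 by -0.66 (SE 0.14, adjusted p = 0.0420). Each of these genes changed in NPC and had a cortex change near 0. Unc5d and Epha5 kept an adjusted p under 0.05 in all 16 alternatives tried, Plxna4 in 12 and Nrp1 in 7. For Plxnc1 (0.61, adjusted p = 0.168) and Sema4b (-0.44, adjusted p = 0.0890), which changed in NPC, a difference from cortex was not shown in this fit. In cortex Sema4b had 29.1, 27.6 and 31.1 CPM in cKO libraries and 36.6, 33.0 and 31.35 CPM in control libraries. That change had the same sign as in NPC but did not pass (-0.20, adjusted p = 0.483). With the replicate block for NPC, Sema4b passed (-0.44, adjusted p = 0.0489), as did Sema6a (-0.38, adjusted p = 0.0172). The cortex and NPC groups differ in tissue, in the means of targeting and in library set, and these cannot be told apart.

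Plxna3 had opposite signs in the 2 systems, -0.33 in cortex and 0.18 in NPC, and the difference of 0.52 missed the threshold (adjusted p = 0.0518) but passed with the replicate block for NPC (adjusted p = 0.0140) and with DESeq2 (adjusted p = 0.00630). Plxnb3, nearly silent in cortex at 0.885, 0.699 and 0.545 CPM in cKO cortex and 1.39, 0.895 and 0.955 CPM in control cortex, had the largest positive difference (1.41, adjusted p = 0.300), which rests on NPC knockdown library 1. Sema3f (1.15, adjusted p = 0.298), Epha6 (-0.83), Efna5 (0.43), Slit1 (-0.49), Robo4 (0.26) and Ntng1 (-0.47) had the differences of largest size in the other families, and none passed.

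Set side by side, the controls of the 2 systems differed in most guidance genes. Control NPC minus control cortex was called for 63 of 69 guidance genes, 14 higher and 49 lower in NPC, but most of the table also differed: 78.9% of all genes were called, 38.4% higher and 40.5% lower. The median log2 difference of the guidance genes was -1.90, beside -0.03 for all genes tested. Levels are compared between genes below as CPM per kb of annotated exon, within this set of controls only. Culture, cell makeup and library set cannot be told apart in this comparison.

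**Figure D4:**
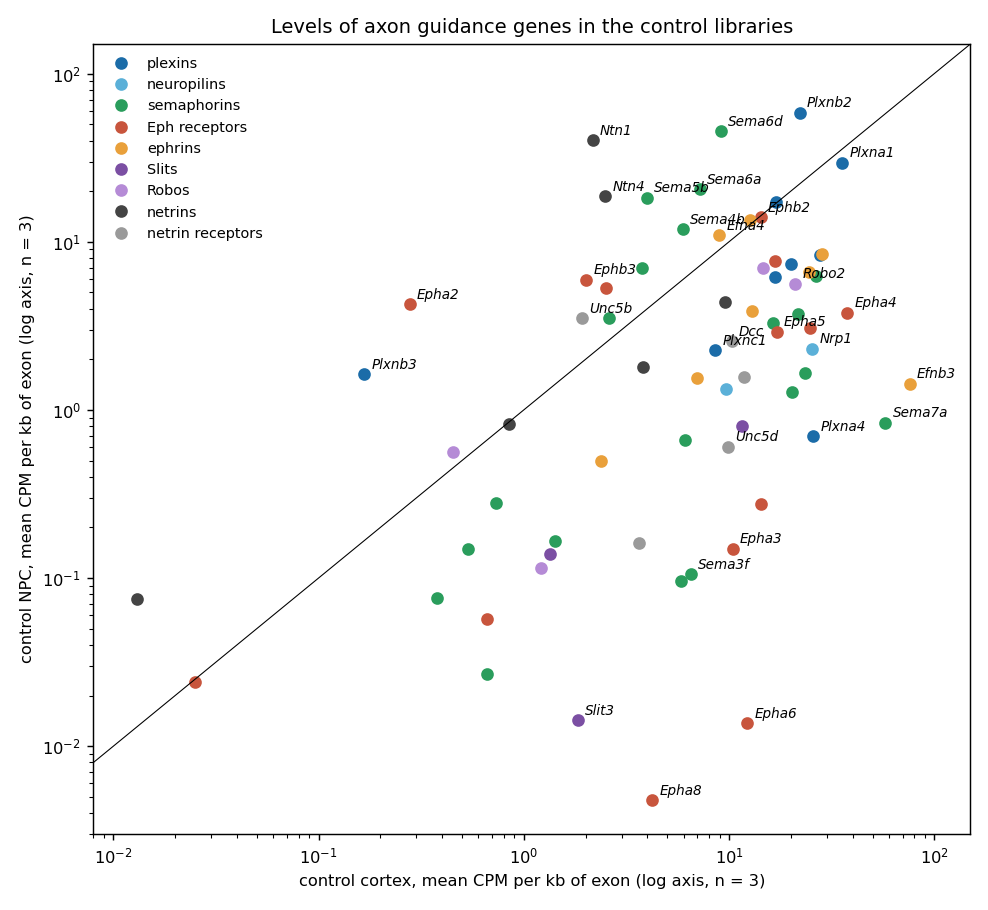
Mean level of each guidance gene in the 3 control NPC libraries (vertical) against the 3 control cortex libraries (horizontal), as CPM per kb of exon on log axes, coloured by family. Genes above the diagonal line are higher in NPC, among them Ntn1, Sema6d and Plxnb2; most genes lie below it, with Epha6 and Epha8 lowest.

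The secreted netrins Ntn1 and Ntn4 were higher in NPC, and Ntn3 was lower. Ntn1 had 40.4, 38.2 and 41.5 CPM per kb in control NPC and 2.44, 2.91 and 1.13 CPM per kb in control cortex, a log2 difference of 4.25 (95% interval 3.60 to 4.89). It was the highest netrin in NPC, and cortex control 3 was lower than the other two cortex controls. Ntn4 followed with 18.6 ± 0.518 CPM per kb in NPC and 2.48 ± 0.634 CPM per kb in cortex (SD, n = 3 each). Ntn3 had 1.81 ± 0.156 CPM per kb in NPC and 3.82 ± 0.624 CPM per kb in cortex (difference -1.05, adjusted p = 1.62e-04). In cortex the highest netrin was Ntng2, at 9.61 ± 1.07 CPM per kb, against 4.37 ± 1.03 CPM per kb in NPC. Ntng1 did not differ beyond its spread, at 0.828 ± 0.574 CPM per kb in NPC and 0.843 ± 0.122 CPM per kb in cortex.

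The netrin receptors mostly went the other way. Unc5a led in cortex at 11.8 ± 1.21 CPM per kb, against 1.56 ± 0.216 CPM per kb in NPC. Dcc at 10.3 ± 2.21 and Unc5d at 9.91 ± 1.67 CPM per kb were next in cortex, each with libraries that overlapped those of Unc5a, while NPC had 2.56 ± 0.215 CPM per kb of Dcc and 0.605 ± 0.0756 CPM per kb of Unc5d. Unc5b was the exception, with 3.51 ± 0.662 CPM per kb in NPC and 1.92 ± 0.185 CPM per kb in cortex (difference 0.90, adjusted p = 6.76e-04). Unc5c had the largest fall of the family, to 0.161 ± 0.0483 CPM per kb in NPC, against 3.66 ± 0.549 CPM per kb in cortex (difference -4.47).

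Plxnb2 was the highest plexin of NPC. It had 56.6, 58.6 and 60.4 CPM per kb in control NPC and 21.5, 23.6 and 21.2 CPM per kb in control cortex (difference 1.44). Plxna1 came next in NPC at 29.5 ± 3.15 CPM per kb and was the highest plexin of cortex at 35.7 ± 2.14 CPM per kb. Plxnb1 was alike in level, at 17.4 ± 1.30 CPM per kb in NPC and 16.9 ± 1.10 CPM per kb in cortex, and its difference of 0.07 had a 95% interval of -0.13 to 0.26. Plxnb3, known from glial cells, had 1.63 ± 0.235 CPM per kb in NPC and 0.167 ± 0.0420 CPM per kb in cortex. Plxna4 had 0.695 ± 0.0373 CPM per kb in NPC and 25.6 ± 2.89 CPM per kb in cortex, the largest difference of the plexins at -5.17. Its rise in labelled knockdown NPC was thus a change at a level far below that of cortex.

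Neuropilins were low in NPC, with Nrp1 at 2.31 ± 0.0880 CPM per kb in NPC and 25.4 ± 3.95 CPM per kb in cortex, and Nrp2 at 1.34 ± 0.577 CPM per kb in NPC and 9.70 ± 1.43 CPM per kb in cortex. All 20 semaphorins were called between the controls, 6 higher and 14 lower in NPC. The 6 higher were Sema6d, Sema5b, Sema6a, Sema4b, Sema3a and Sema5a. Sema6d, the highest semaphorin of NPC, had 45.3 ± 2.69 CPM per kb in NPC and 9.14 ± 0.648 CPM per kb in cortex. Sema7a, the highest of cortex, had 0.838 ± 0.309 CPM per kb in NPC and 57.7 ± 2.81 CPM per kb in cortex, a difference of -6.07. Sema4c (26.6 ± 0.869), Sema6b (23.5 ± 2.12), Sema3c (21.8 ± 6.54) and Sema6c (20.2 ± 1.65 CPM per kb) followed it in cortex, and Sema6b, Sema3c and Sema6c lay within the spread of their neighbours in that order.

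Eph receptors spanned the widest range. Epha4 led in cortex, at 3.78 ± 0.604 CPM per kb in NPC and 37.6 ± 5.58 CPM per kb in cortex, and Ephb2 led in NPC, at 14.0 ± 3.87 CPM per kb in NPC and 14.2 ± 0.556 CPM per kb in cortex. Epha6 and Epha8, both receptors of ephrin-A ligands, had 3, 2 and 1 and 0, 0 and 2 counts in control NPC libraries 1 to 3, against 1866, 2621 and 2237 and 683, 699 and 701 counts in control cortex. Epha2, Ephb3 and Ephb4 were the Eph receptors called higher in NPC. Epha2 had 4.25 ± 0.270 CPM per kb in NPC and 0.278 ± 0.0356 CPM per kb in cortex, a difference of 3.96. Among the ephrins, Efnb3 led in cortex, at 1.43 ± 0.0755 CPM per kb in NPC and 76.0 ± 5.79 CPM per kb in cortex, the highest level of all guidance genes there. Efnb1 led in NPC at 13.4 ± 1.83 CPM per kb, with 12.6 ± 0.913 CPM per kb in cortex (difference 0.12, 95% interval -0.15 to 0.39), and Efna4 at 10.95 ± 0.747 CPM per kb in NPC and 8.95 ± 1.196 CPM per kb in cortex also did not pass (adjusted p = 0.0532). No ephrin was called higher in NPC.

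Slits were lower in NPC, all 3 of them. Slit1, the highest in both, had 0.798 ± 0.0860 CPM per kb in NPC and 11.6 ± 0.779 CPM per kb in cortex, and Slit3 had 1, 5 and 1 counts in control NPC and 322, 461 and 376 counts in control cortex. Of the Robos, Robo1 had 6.94 ± 1.03 CPM per kb in NPC and 14.7 ± 0.827 CPM per kb in cortex, and Robo2 had 5.61 ± 0.843 CPM per kb in NPC and 20.99 ± 2.71 CPM per kb in cortex. Robo4, an endothelial receptor, had 0.115 ± 0.0305 CPM per kb in NPC and 1.21 ± 0.242 CPM per kb in cortex, while Robo3 did not pass (difference 0.34, adjusted p = 0.372).

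Replicate number marked the level of several guidance genes in NPC. Same-numbered NPC libraries deviated together across all genes (correlations of 0.48, 0.50 and 0.44). The counts below were not made for all genes, so they do not set the guidance genes apart from the table. Of 58 guidance genes that averaged 1 CPM or more over the NPC libraries, 11 spanned at least 1.5-fold over the 3 controls, and in 10 of these the same number was highest in the knockdown libraries. Ntng1 had 10.3, 3.08 and 3.94 CPM in knockdown libraries 1 to 3 and 12.3, 3.74 and 4.47 CPM in control libraries 1 to 3, so number 1 stood apart in both groups. Efna5 had 3.37, 14.0 and 4.52 CPM in knockdown NPC and 3.83, 10.2 and 4.77 CPM in control NPC, with number 2 apart. Number 1 was also highest for Sema3d, Sema7a, Sema3e, Ephb2 and Unc5c, number 2 for Nrp2 and Robo3, and number 3 for Ntng2. Epha3 was the exception, with number 3 highest in the controls and number 2 in the knockdown libraries.

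**Figure D5:**
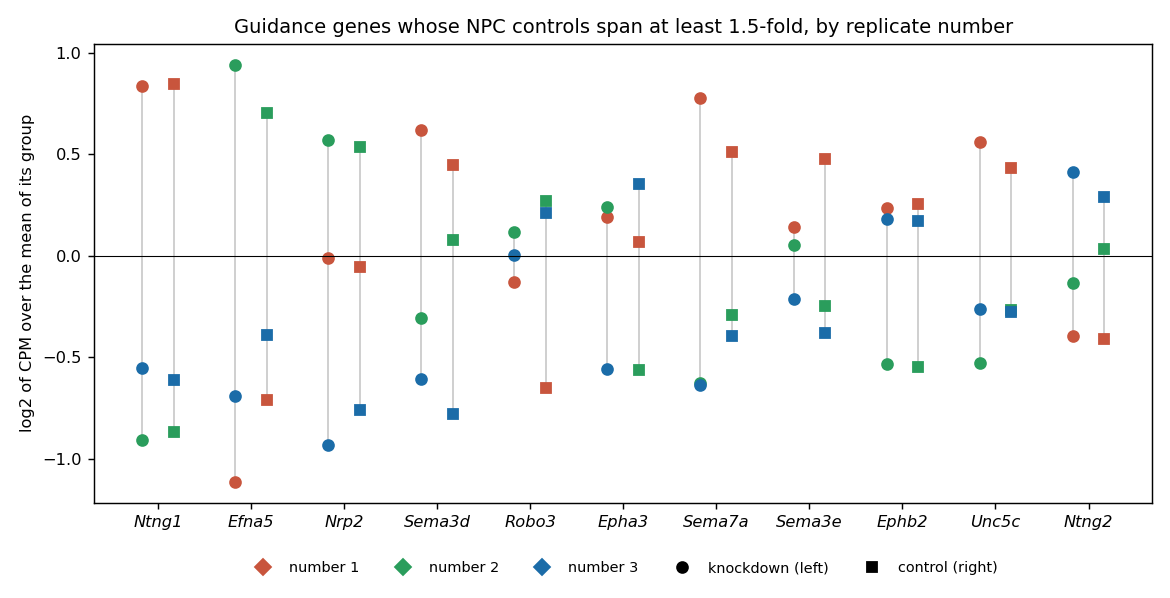
Log2 of CPM over the mean of its own group for the 11 guidance genes whose 3 NPC controls span at least 1.5-fold; circles (left) are labelled knockdown libraries, squares (right) controls, and colours mark replicate numbers 1 to 3. The colour order is alike in both groups for most genes, as in Ntng1, whose controls span 3.28-fold and whose knockdown libraries span 3.36-fold.

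Further genes of the same pathways were read from 5 lists of intracellular effectors and co-receptors. These lists were chosen with earlier results of these data known, so the shares called in them are a description and no support. Without pairs, 3 of the listed genes passed in NPC, 2 of 17 in the semaphorin list and 1 of 15 in the netrin list, beside 1.89% of all genes. Crmp1, a collapsin response mediator that acts downstream of Sema3a, had 57.8, 38.3 and 39.3 CPM in knockdown NPC and 98.97, 79.7 and 87.0 CPM in control NPC, and fell by 0.97 (SE 0.17, adjusted p = 0.0393). Rnd1, a small GTPase that binds plexins, had 8.16, 8.72 and 10.4 CPM in knockdown NPC and 4.76, 5.69 and 5.01 CPM in control NPC, and rose by 0.82 (SE 0.15, adjusted p = 0.0461). Trim9, a ubiquitin ligase that binds Dcc, had 251, 206 and 286 CPM in knockdown NPC and 478, 427 and 503.9 CPM in control NPC, and fell by 0.92 (SE 0.12, adjusted p = 0.0157). None of these 3 groups overlapped, and in cortex the changes of Crmp1, Rnd1 and Trim9 were -0.09, 0.03 and 0.13.

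With pairs, the semaphorin and plexin effector list had 5 higher and 3 lower of 17, and the netrin list 6 higher and 3 lower of 15. The Slit and Robo list had 1 higher and 5 lower of 14, the Eph and ephrin list 1 higher and 2 lower of 15, and the co-receptor list 2 higher and 0 lower of 10. The shares called were 47.1%, 60.0%, 42.9%, 20.0% and 20.0% in that order, beside 24.7% of all genes. Because of how the lists were chosen, no excess over that share can be read from these values. Of the Slit and Robo list, Abl2, a kinase downstream of Robo, fell by 0.43 (88.7 CPM in knockdown NPC and 119.8 CPM in control NPC, adjusted p = 7.39e-05), and Srgap2, which binds Robo, fell by 0.32 (389 CPM in knockdown NPC and 486 CPM in control NPC, adjusted p = 3.81e-04). Of the Eph and ephrin list, Kalrn fell by 0.33 (adjusted p = 0.00152). Of the semaphorin list, Cdk5 fell by 0.45 (adjusted p = 3.89e-04) and Farp1 by 0.26 (adjusted p = 0.00306). Of the netrin list, Draxin rose by 1.34 (adjusted p = 0.00193). It had 16.7, 3.31 and 2.84 CPM in knockdown NPC and 3.72, 1.83 and 1.93 CPM in control NPC, so knockdown library 1 stood apart. The genes named with pairs are examples and not all of those called. In the co-receptor list, Cntn1, a cell adhesion molecule, rose by 0.27 (adjusted p = 0.00123) and Flrt1, which binds Unc5 proteins, by 0.92 at about 1 CPM (adjusted p = 0.0434). Median changes with pairs were -0.04, -0.09, -0.01, 0.05 and 0.08 for the semaphorin, Eph, Slit, netrin and co-receptor lists, beside 0.0033 for all genes. In cortex none of the listed genes passed the edgeR test, where 3 of 17, 2 of 15, 2 of 14, 1 of 15 and 3 of 10 in the list order of the medians had an unadjusted p under 0.05, beside 10.9% of all genes; Chn1, an effector of Epha4, and Draxin, a netrin-binding repellent, had the smallest p-values (changes -0.25 and -0.35, adjusted p = 0.159 and 0.161).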

How the data were processed

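Gene counts of 12 libraries were deposited by the authors as 1 table of raw counts, whole numbers per gene with no normalization. Reads were aligned to mm10 with HISAT2, per the submitters' processing notes; neither labels nor notes name the counting program, its annotation or its use of strand. Identifiers were matched to GENCODE M21, which held 34065 of 34102 and all 71 guidance genes. Genes were filtered by filterByExpr on the groups, scaled by TMM and tested with edgeR 4.0.16 (limma 3.58.1, R 4.3.3) by the quasi-likelihood test, with Benjamini-Hochberg adjustment over all genes tested and a threshold of 0.05. Each comparison used its own 6 libraries, and the difference between systems used all 12. DESeq2 1.42.0 was an alternative, as were RLE scaling, no filter, 1 fit of all 12 libraries, sex as a covariate, leaving out libraries rich in Ttr, and leaving out each replicate. Figures were drawn with matplotlib 3.10.9 in Python 3.11.15. CPM was computed from the deposited counts, scaled by the counts of the filtered genes and the TMM factor within cortex or within NPC. Between genes it was divided by annotated exon length.

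Labels give both NPC groups the numbers 1 to 3. Since every same-numbered NPC pair correlated above 0.1 in its deviations from the group means (0.48, 0.50 and 0.44), the numbers were taken as pairs, from the data rather than from a stated shared culture, and the fit with the block is printed beside the main one. The members, gene lists and marker lists were chosen with earlier results of these data known. Values per library are given for Srsf10, for each member called, for the member of highest level per length of each family in each control group, and for the member of largest change of each family among those of at least 1 CPM. Genes outside the set come from the pathway lists (those called without pairs, some of those called with pairs, and the 2 of smallest p in cortex) and the marker lists. The edgeR scripts were tested on simulated data. No 2 replicates agreed within sampling noise.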

Additional observations from a re-analysis of the deposited data

Results flagged for a closer look

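In 4 guidance genes the change in NPC labelled knockdown differed from the change in cortex labelled cKO by a test of the difference itself (edgeR quasi-likelihood test of the interaction in all 12 libraries, adjusted over all genes). The difference, NPC change minus cortex change on the log2 scale, was -1.73 for Unc5d (adjusted p = 0.00421), 0.65 for Epha5 (adjusted p = 0.0137), 0.88 for Plxna4 (adjusted p = 0.0179) and -0.66 for Nrp1 (adjusted p = 0.0420). In all 4 the 3 knockdown NPC libraries lay apart from the 3 control NPC libraries. The test that picked these genes used the same libraries, so this is a description and adds no support. The Plxna4 call was lost without cKO library 2 or 3, knockdown library 2 or NPC control library 2, and the Nrp1 call in 9 of 16 alternatives, each of them leaving out 1 library.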

How the results depend on the processing

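In cortex, the count of 0 guidance genes became 4 without the count filter, 4 with DESeq2, 1 without the libraries rich in Ttr, and 0 to 1 when 1 library was left out. The count of all genes called in cortex, 27, became 156 without the filter, 338 with DESeq2, 49 in 1 fit of all 12 libraries, 1 with the replicate block, 12 with sex as a covariate and 0 to 28 when 1 library was left out. In NPC without pairs, the 6 guidance genes became 0 to 6 when 1 library was left out, and the 270 of all genes became 1012 with DESeq2, 654 in 1 fit of all 12 libraries and 47 to 304 when 1 library was left out. With the replicate block, the 20 guidance genes became 12 with DESeq2, 6 without the block and 10 to 24 when 1 pair was left out, and the 3522 of all genes became 270 without the block and 1636 to 4376 when 1 pair was left out. For the difference between systems, the 4 guidance genes became 7 with the replicate block for NPC and 2 to 4 when 1 library was left out, and the 242 of all genes became 783 with DESeq2, 836 with the block and 98 to 275 when 1 library was left out. Between controls, 62 or 63 guidance genes were called under every alternative run, and Ntng1, at 0.0038 on the log2 scale, was at -0.71 without NPC control library 1, its high library, and at up to 0.29 without another library. RLE scaling left each count of guidance genes as it was. The causes of these moves were not tested. A fit that leaves libraries out has fewer samples and also lacks those libraries, and these cannot be told apart. Genes of few counts, such as Sema7a, Sema3f and Unc5d in NPC, rest on few reads, and the part of depth was not tested.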
